A study of Mus musculus with 18 samples.

Results

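Cell cycle and DNA replication genes were followed in GL261 glioma, in the cultured cells it came from and in healthy brain. The 45 genes were chosen by name among the 30854 genes of the authors' gene table, by their symbol or an older synonym (Cdk1 stood there as CDC2A, Cdc45 as CDC45L). They comprised 21 S phase genes, 19 mitosis genes and 5 genes that control G1. All 45 were linked to their probes, and 41 had a probe detected above the negative controls on at least 2 of the 18 arrays. The other 4 were mitosis genes, Ccnb2, Ccna2, Bub1 and Kif20a, whose probes were detected on 0 arrays. Counts of mitosis genes below therefore cover 15 of 19 members, and a gene detected in a single group could enter only through that group.

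Cells that divide pass through G1, S phase, G2 and mitosis. D-type cyclins and the inhibitors p21, p27 and p16 set whether a cell leaves G1. E2F transcription factors then switch on the genes of DNA replication, and a later wave of transcription, which uses the cell cycle homology region (CHR) and CCAAT boxes of promoters, supplies the genes of mitosis. Neurons and most glia of the adult brain have left the cycle, while glioma cells divide.

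RNA was measured on Illumina mouse arrays. The GL261 glioma line of the mouse was grown in culture or injected into C57BL/6 wild-type (WT) mice or into Pfp/Rag2 -/- mice, whose killer lymphocytes are without perforin, which makes pores in target cells, and which cannot make mature T and B cells for want of Rag2. Of each host type, 4 mice gave tumours on day 7, 4 on day 14 and 6 once they had symptoms, and an array held the RNA of 2 or 3 mice. There were 3 arrays for either symptomatic group and 2 for every other group, including the brain and cell groups. Healthy brain is labelled WT C57BL/6 and was taken as brain from its title, although its cell line label reads GL261, and cultured cells carry no strain or genotype. Neither the age of the mice nor the day of the symptomatic stage is given in the sources used here, a single tumour line was used, and the hosts keep macrophages. Values are log2 signals after background correction and quantile normalization, and each difference below is a log2 difference with its standard error (SE) from 1 limma fit over all arrays. A gene was called where its Benjamini-Hochberg adjusted p over 14489 genes was under 0.05.

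The share of probes detected ran from 32.2% to 39.8% over the arrays, replicate arrays correlated at 0.966 to 0.996 across genes, and the number of arrays limits the precision. Nothing says which mice went into which pool, or whether pools of a group shared a mouse. The p-values rest on a spread per gene shared by all groups, brain and cell arrays included, and not on that between single mice. The Rag2 probe was detected on 0 arrays. The brighter Prf1 probe was detected on all 18 arrays, Pfp/Rag2 -/- tumours included (mean log2 signal 8.04, 7.9 and 8.16, in order of stage), so it does not check the knockout. The dimmer Prf1 probe was detected on 1 array, a WT tumour pool of day 14. Of 7 measured T cell markers 6 were detected in WT tumours at each stage, and 1 or 2 in Pfp/Rag2 -/- tumours, where Cd3d, Cd3e, Cd8b1 and Cd2 were at background. Cd3g was detected in Pfp/Rag2 -/- tumours at day 14 and the symptomatic stage, and cultured cells had 1 of the 7 detected.

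Every measured member was higher in cultured GL261 cells than in healthy brain. All 21 S phase genes, 15 of 15 measured mitosis genes and all 5 G1 genes were called higher, where 42.2% of all genes tested were called higher and 34.2% lower. The median difference was 3.69 for S phase genes and 5.66 for mitosis genes, against 0.19 for all genes tested. Both class medians take in genes undetected in brain, whose differences are not exact. The map of members by array shows both ends of this scale.

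**Figure D1:**
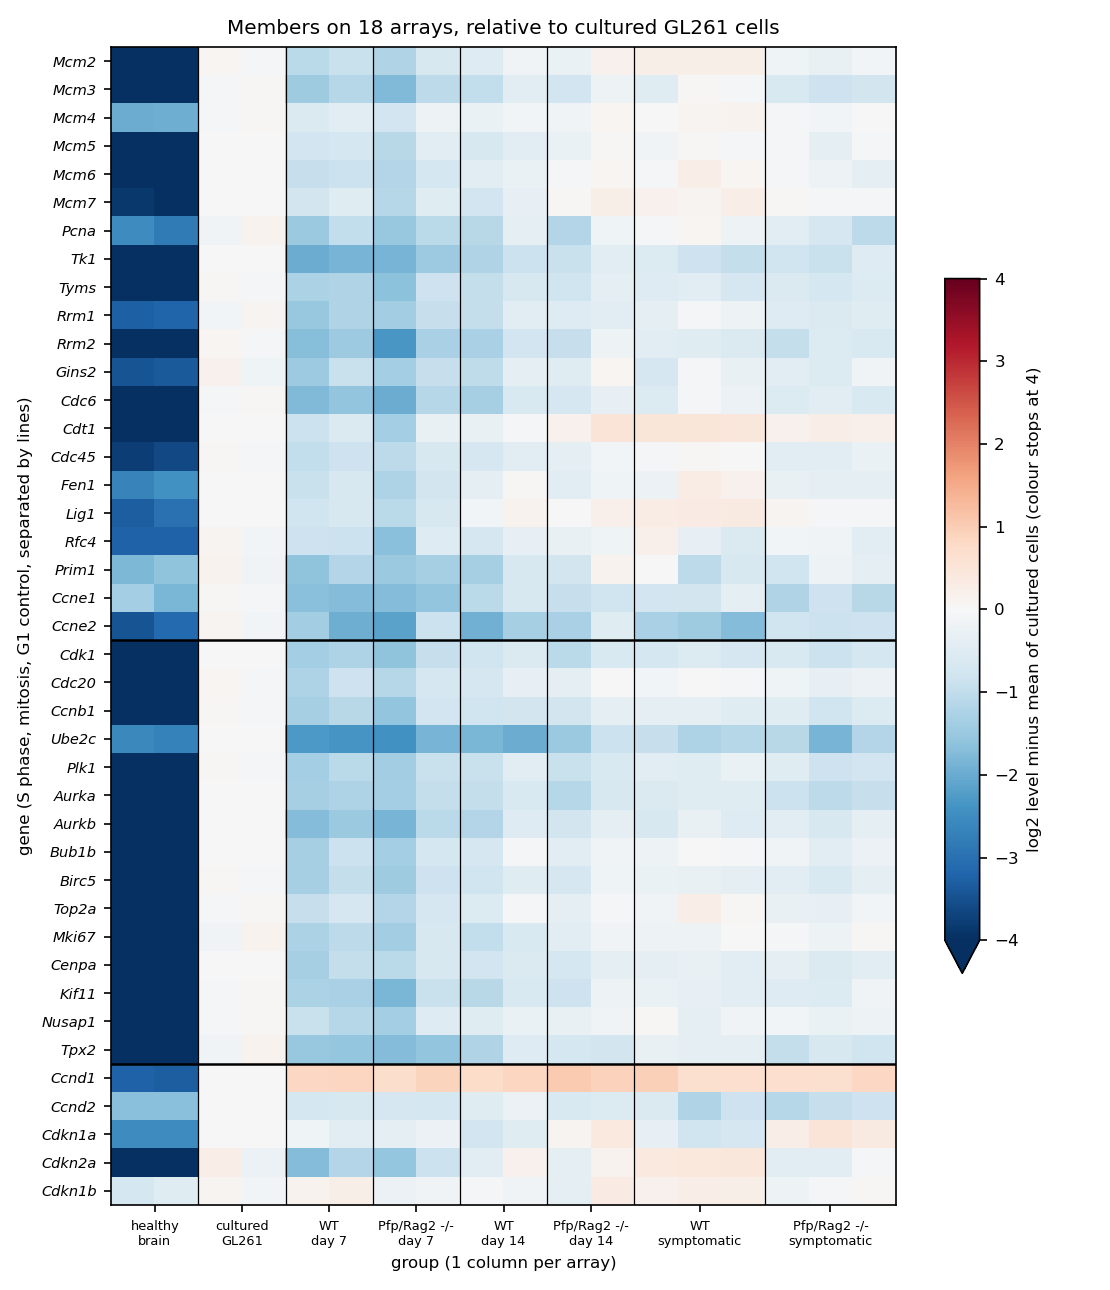
Log2 level of each of the 41 measured members (rows) on each of the 18 arrays (columns, grouped by sample group), minus the mean of that gene in cultured GL261 cells; blue is lower and red is higher than cultured cells, and colours stop at 4. Both brain columns are blue for every gene, palest for Cdkn1b, tumour columns of most S phase and mitosis genes are paler at the symptomatic stage than at day 7, and Ccnd1 is red in every tumour column.

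Among S phase genes, Tk1, the thymidine kinase that recycles thymidine for DNA synthesis, was at 4.80 and 4.63 in healthy brain, below detection on both arrays, and at 10.77 and 10.82 in cultured cells. Tk1 was therefore at least 31.1-fold higher in the cells (adjusted p = 8.0e-11). Mcm6, a subunit of the MCM helicase that unwinds DNA at replication forks, read 6.99 and 6.95 in brain against 11.01 and 11.04 in cells, a difference of 4.05 (SE 0.16, adjusted p = 2.6e-10). Mcm2, another subunit of that helicase, differed by 4.47 (SE 0.19) and Cdc45, which joins the helicase to make it active, by 3.69 (SE 0.15). The smallest differences of the class, named after their values were seen, were those of Ccne1 at 1.60 (SE 0.20) and of Prim1, which was undetected in brain and at least 1.68-fold higher in cells. Ccne1 is cyclin E1, which acts at the entry to S phase, and Prim1 is the primase subunit that starts new DNA strands.

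Among mitosis genes, Cdk1, the kinase that drives entry into mitosis, was at 5.15 and 5.04 in brain, below detection, and at 12.24 and 12.18 in cells, at least 83.2-fold higher (adjusted p = 2.4e-11). Cenpa, the histone variant that marks centromeres, read 7.92 and 7.85 in brain and 14.02 on both arrays of cells, a difference of 6.14 (SE 0.17, adjusted p = 1.9e-11). Cdc20, an activator of the anaphase-promoting complex, differed by 6.24 (SE 0.19), and Aurka, a kinase of the spindle poles, by 5.71 (SE 0.17). Ube2c, the ubiquitin-conjugating enzyme of the same complex and the mitosis gene with the smallest difference, was undetected in brain and read 7.29 and 7.32 in cells, at least 2.77-fold higher.

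The G1 genes differed less evenly. Cdkn2a, the locus of the inhibitors p16 and p19Arf, was below detection in brain (4.51 and 4.68) and read 10.12 and 9.62 in cells, at least 16.4-fold higher (adjusted p = 3.7e-09). Ccnd1, cyclin D1, differed by 3.26 (SE 0.12), Cdkn1a, which encodes p21, by 2.51 (SE 0.16), and Ccnd2, cyclin D2, by 1.69 (SE 0.17). The difference of Cdkn1b, which encodes p27, was 0.59 (SE 0.19, adjusted p = 0.011), smaller than that of any other member. Other genes of the cycle, from lists that do not hold the members, were also mostly higher in the cells. They numbered 32 of 37 measured replication genes (1 lower), 44 of 46 mitosis genes (1 lower) and 20 of 23 G1 genes (1 lower). Examples were Uhrf1, which keeps DNA methylation through replication, with a difference of 4.96 (SE 0.15), Prc1, a midzone protein of the dividing cell, with 5.71 (SE 0.16), and the kinase gene Cdk2 with 4.58 (SE 0.16).

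Promoters of the members were read because genes of both classes were high together in the cells and low together in brain. RefSeq promoter windows (assembly GRCm38.p6, 250 bases before to 50 after the start site) were at hand for 36 of the 45 members, by symbol. Below are, of each class, the 3 members with the largest difference between cells and brain among those whose window holds E2F or CHR letters. Tk1 (6.08) and Tyms (5.39), with larger differences than the S phase genes shown, and Birc5 (6.21), above Cenpa (6.14), were passed over, since their windows hold neither. They lie on the + strand at chr8:122567765-122568064 (Cdt1), chr11:98907901-98908200 (Cdc6) and chr5:30666636-30666935 (Cenpa), and on the - strand at chr1:20820263-20820562 (Mcm3), chr10:69352863-69353162 (Cdk1) and chr4:118437294-118437593 (Cdc20). Each is written 5′ to 3′ in the direction of its gene, and capitals mark E2F letters (TTCCCGC or TTGGCGC) and CHR letters (TTTGAA), on either strand.
Cdt1: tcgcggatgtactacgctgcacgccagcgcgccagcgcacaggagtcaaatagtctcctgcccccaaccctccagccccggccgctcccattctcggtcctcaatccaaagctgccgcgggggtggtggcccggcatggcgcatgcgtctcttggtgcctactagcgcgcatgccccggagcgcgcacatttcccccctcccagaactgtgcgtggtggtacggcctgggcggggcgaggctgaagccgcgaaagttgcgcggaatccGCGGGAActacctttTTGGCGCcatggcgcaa
Cdc6: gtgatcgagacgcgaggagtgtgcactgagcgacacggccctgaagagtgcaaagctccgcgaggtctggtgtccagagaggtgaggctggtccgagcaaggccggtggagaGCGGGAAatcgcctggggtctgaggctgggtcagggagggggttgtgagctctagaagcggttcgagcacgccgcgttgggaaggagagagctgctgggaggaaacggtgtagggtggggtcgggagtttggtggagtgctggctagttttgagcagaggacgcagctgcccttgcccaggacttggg
Mcm3: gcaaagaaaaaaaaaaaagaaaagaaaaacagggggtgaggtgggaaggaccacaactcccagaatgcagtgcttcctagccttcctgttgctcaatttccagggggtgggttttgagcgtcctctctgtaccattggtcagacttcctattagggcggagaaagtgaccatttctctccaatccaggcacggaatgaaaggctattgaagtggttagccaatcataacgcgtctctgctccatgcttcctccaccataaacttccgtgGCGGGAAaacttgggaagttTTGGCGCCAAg
Cdk1: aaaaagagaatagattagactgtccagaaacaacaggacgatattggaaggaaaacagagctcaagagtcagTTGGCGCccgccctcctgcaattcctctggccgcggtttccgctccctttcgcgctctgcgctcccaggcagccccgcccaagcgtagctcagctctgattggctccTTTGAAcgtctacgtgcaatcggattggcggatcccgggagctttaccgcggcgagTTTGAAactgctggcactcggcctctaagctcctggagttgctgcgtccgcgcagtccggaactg
Cdc20: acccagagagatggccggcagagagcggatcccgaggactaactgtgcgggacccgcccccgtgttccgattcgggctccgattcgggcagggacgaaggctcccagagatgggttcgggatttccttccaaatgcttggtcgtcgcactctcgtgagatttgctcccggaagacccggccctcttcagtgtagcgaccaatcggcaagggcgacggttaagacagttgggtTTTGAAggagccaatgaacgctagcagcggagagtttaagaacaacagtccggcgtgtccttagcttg
Cenpa: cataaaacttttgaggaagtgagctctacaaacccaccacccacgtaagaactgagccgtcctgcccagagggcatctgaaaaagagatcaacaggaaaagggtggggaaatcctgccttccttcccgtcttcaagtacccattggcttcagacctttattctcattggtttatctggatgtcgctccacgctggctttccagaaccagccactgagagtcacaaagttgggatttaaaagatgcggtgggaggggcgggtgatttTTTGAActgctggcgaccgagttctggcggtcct

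Cdt1 and Cdc6 load the MCM helicase onto DNA, and Mcm3 is one of its subunits. The E2F letters of Cdt1 began 18 and 33 bases after the start site and those of Cdc6 138 bases before it. In Mcm3 they began 19, 39 and 42 bases after the start site, the last 2 being overlapping matches on opposite strands. Cdk1 held CHR letters 71 and 15 bases before the start site and E2F letters 178 bases before it, Cdc20 held CHR letters 18 bases before the start site, and Cenpa 16 bases after it.

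The 2 classes differed in which letters their windows held. E2F letters were found in 10 of 18 S phase genes with a window (55.6%), in 3 of 15 mitosis genes and in 7.79% of 27025 genes with a window. CHR letters were found in 11 of 15 mitosis genes (73.3%), in 3 of 18 S phase genes (16.7%) and in 20.2% of all genes. CCAAT, searched on both strands, was held by 13 of 15 mitosis genes (86.7%), by 10 of 18 S phase genes (55.6%) and by 41.1% of all genes. E2F and CCAAT matches overlapped in 3 of the 10 member windows that held both, and CHR and CCAAT matches in 0 of 13. These are letter matches in windows of 300 bases, not sites shown to be used, and no test was made of the shares.

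At day 7, tumours stood between brain and cultured cells for nearly all members. In WT hosts 19 of 21 S phase genes, 14 of 15 measured mitosis genes and all 5 G1 genes were called higher than in healthy brain, against 28.3% of all genes tested (29.8% lower). Pfp/Rag2 -/- hosts had 19, 14 and 4 called higher, against 27.4% of all genes (26.9% lower). The 2 comparisons share the brain arrays. The members not called were Prim1, Ccne1 and Ube2c in both hosts and Cdkn1b in Pfp/Rag2 -/- hosts (0.39, SE 0.19, adjusted p = 0.089).

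Tk1 read 8.82 and 8.92 in WT hosts and 8.92 and 9.33 in Pfp/Rag2 -/- hosts, at least 8.22-fold and at least 9.78-fold above brain. Mcm6 differed from brain by 3.16 (SE 0.16) and 3.12 (SE 0.16), Mcm2 by 3.50 (SE 0.19) and 3.55 (SE 0.19), and Cdc45 by 2.78 (SE 0.15) and 2.83 (SE 0.15), WT hosts first. In mitosis, Cdk1 was at least 34.1-fold and at least 34.9-fold above brain. Cenpa differed by 4.99 (SE 0.17) and 5.27 (SE 0.17), Cdc20 by 5.21 (SE 0.19) and 5.33 (SE 0.19), and Aurka by 4.41 (SE 0.17) and 4.56 (SE 0.17). Ccne1 was an exception: at 5.67 and 5.61 in WT hosts it lay within the range of brain (5.98 and 5.50), and its difference was -0.10 (SE 0.20, adjusted p = 0.67). Its mean in cultured cells was 7.34 ± 0.08 (SD, n = 2). Ube2c was not above background on any day 7 array.

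The G1 genes at day 7 did not sit at one place between brain and cells. Ccnd1 was 4.10 (SE 0.12) above brain in WT hosts and 4.05 (SE 0.12) in Pfp/Rag2 -/- hosts, and its 4 arrays (14.24, 14.26, 14.12 and 14.30) were all above both arrays of cultured cells (13.41 and 13.42). Cdkn1a was 2.23 above brain in both hosts (SE 0.16). Cdkn2a was at least 6.00-fold and at least 7.15-fold above brain, and Ccnd2 differed by 1.01 (SE 0.17) and 0.99 (SE 0.17). In WT hosts Cdkn1b differed by 0.77 (SE 0.19, adjusted p = 0.0034).

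The level of each class was set as a percentage of cultured cells, per array the median over its genes of the background-corrected linear signal. In brain the S phase genes Mcm3, Pcna, Tk1, Rrm2, Gins2, Cdc6 and Prim1 were undetected on both arrays. So were the mitosis genes Cdk1, Ccnb1, Ube2c, Aurkb, Birc5, Kif11 and Tpx2. The brain levels of both classes therefore take in background readings. For S phase genes the level was 5.48% ± 0.138 (SD, n = 2) in brain. WT hosts went from 46.1% ± 6.7 (SD, n = 2) on day 7 through 63.2% ± 16.4 (SD, n = 2) on day 14 to 93% ± 8.21 (SD, n = 3) when symptomatic. For Pfp/Rag2 -/- hosts the values were 45.7% ± 14.1 (SD, n = 2), 79.3% ± 13.3 (SD, n = 2) and 72.7% ± 0.988 (SD, n = 3). Every symptomatic WT array (86.8% to 102%) lay above every symptomatic Pfp/Rag2 -/- array (71.6% to 73.5%). On the log2 scale the median level of the S phase genes overlapped between these hosts (9.86 to 10.04 and 9.79 to 9.88), and no S phase gene was called between them. For mitosis genes brain was at 1.41% ± 0.0401 (SD, n = 2), and the tumours ran from 42.4% ± 4.52 (SD, n = 2) to 62.8% ± 7.77 (SD, n = 2) and 78.8% ± 2.19 (SD, n = 3) in WT hosts. The Pfp/Rag2 -/- tumours ran from 46.7% ± 13 (SD, n = 2) to 69.5% ± 12.7 (SD, n = 2) and 71.3% ± 6.12 (SD, n = 3), and here the ranges of the symptomatic hosts overlapped (76.5% to 80.8% and 64.9% to 77.1%).

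Neuron markers were lower in the later tumours. The 10 measured neuron markers of 14 (median over genes, as a percentage of brain) stood in WT hosts at 30.3% ± 4.19 (SD, n = 2), 12% ± 10.3 (SD, n = 2) and 3% ± 0.948 (SD, n = 3) over the 3 stages. Those of Pfp/Rag2 -/- hosts were 37.4% ± 18.6 (SD, n = 2), 8.66% ± 7.96 (SD, n = 2) and 6.33% ± 4.32 (SD, n = 3). Their summed signal was 67800 to 69100 in brain, 19100 to 23000, then 4000 to 17200, then 1950 to 2780 in WT hosts, 16300 to 36300, then 2290 to 11100, then 2490 to 7800 in Pfp/Rag2 -/- hosts, and 458 to 484 in cultured cells. In tumours Grin1 was at background in each group, and Dlg4 in each but WT hosts at day 7. The part of brain RNA in the changes with time was not tested. In such bulk samples fewer cells of a type and less RNA per cell cannot be told apart.

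**Figure D2:**
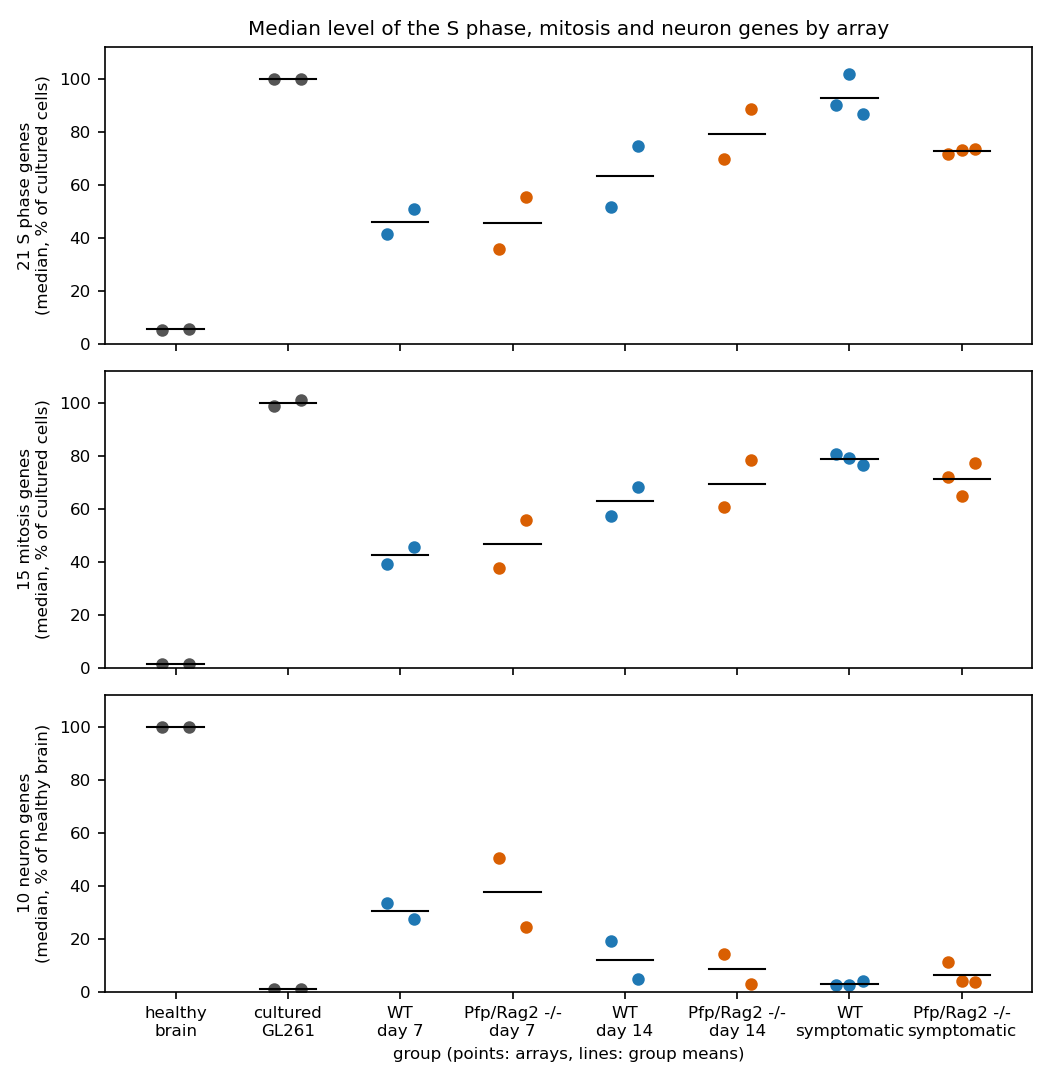
Median level of the 21 S phase and 15 mitosis genes on each array as a percentage of cultured cells (upper panels), and of the 10 neuron genes as a percentage of healthy brain (lowest panel); points are arrays, blue for WT and orange for Pfp/Rag2 -/- hosts, and lines are group means. The array of Pfp/Rag2 -/- hosts at day 7 with the lowest S phase level, 35.7%, has the highest neuron level of a tumour array, 50.6%.

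Single genes were also read array by array. In WT hosts Mcm6 read 10.10 and 10.17 on day 7, then 10.56 and 10.75, then 10.94, 11.29 and 11.10 when symptomatic, and in Pfp/Rag2 -/- hosts 9.86 and 10.32, 10.99 and 11.10 and 10.94, 10.81 and 10.68. All day 7 arrays lay below all later ones. Cdk1 was above every tumour array in both arrays of cells. WT hosts read 10.86 and 10.98, 11.41 and 11.63 and 11.52, 11.66 and 11.54 at the 3 stages, and Pfp/Rag2 -/- hosts 10.61 and 11.30, 11.13 and 11.60 and 11.61, 11.35 and 11.52. The day 7 and day 14 ranges of Cdk1 overlapped in Pfp/Rag2 -/- hosts. Cenpa read 12.68 and 13.07, 13.26 and 13.43 and 13.67, 13.72 and 13.60 in WT and 12.94 and 13.38, 13.33 and 13.64 and 13.66, 13.43 and 13.61 in Pfp/Rag2 -/- hosts, and no tumour array reached the cells at 14.02.

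From day 7 to day 14 in WT hosts, 3 S phase genes, 1 mitosis gene and 1 G1 gene were called higher and no member lower, where 3.97% of all genes tested were called higher and 4.82% lower. The median difference was 0.52 for S phase and 0.52 for mitosis genes, against 0.07 for all genes, and all 21 and 15 had a positive value. At an unadjusted p under 0.05 there were 23 of 41 members and 28% of all genes. Lig1, the DNA ligase that joins Okazaki fragments, rose by 0.73 (SE 0.16, adjusted p = 0.017), from 9.19 and 9.35 to 9.87 and 10.13. Tk1 rose by 0.90 (SE 0.21, adjusted p = 0.022), Ccne1 by 0.84 (SE 0.20, adjusted p = 0.023) and Tpx2, an activator of Aurora A on the spindle, by 0.67 (SE 0.18, adjusted p = 0.041). Cdkn2a rose by 1.32 (SE 0.28, adjusted p = 0.016), from 8.14 and 8.69 to 9.44 and 10.05. Mcm2, with the next smallest p among S phase genes, differed by 0.63 (SE 0.19, adjusted p = 0.056), and in mitosis Bub1b, a kinase of the spindle checkpoint, by 0.71 (SE 0.23), Aurkb by 0.77 (SE 0.26) and Cdk1 by 0.60 (SE 0.20), with adjusted p of 0.074 to 0.080. Of the G1 genes not called, Cdkn1a differed by -0.35, Ccnd2 by 0.32, Cdkn1b by -0.29 and Ccnd1 by -0.04. The count of 5 depended on single pools: it fell without either array of day 7 or without replicate 2 of day 14. It rose without replicate 1 of day 14, and the count of all genes moved the same way each time.

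Over the same days in Pfp/Rag2 -/- hosts, 19 S phase genes, 11 mitosis genes and 2 G1 genes were called higher and no member lower, where 19.4% of all genes tested were called higher and 16.9% lower. The median difference was 0.86 for S phase and 0.70 for mitosis genes, against 0.11 for all genes. Lig1 rose by 0.97 (SE 0.16, adjusted p = 0.0030), from 8.91 and 9.34 to 9.99 and 10.19, and Mcm6 by 0.96 (SE 0.16, adjusted p = 0.0031), from 9.86 and 10.32 to 10.99 and 11.10. Mcm7, a further helicase subunit, rose by 0.97 (SE 0.19), Tk1 by 1.01 (SE 0.21), Tpx2 by 0.95 (SE 0.18), Cdc20 by 0.70 (SE 0.19) and Aurkb, the kinase of the chromosomal passenger complex, by 0.90 (SE 0.26). Ube2c went from background on both day 7 arrays to detection on 1 of 2 arrays at day 14, at least 1.39-fold higher (adjusted p = 0.014). Cdkn2a rose by 1.09 (SE 0.28, adjusted p = 0.013) and Cdkn1a by 0.54 (SE 0.16, adjusted p = 0.025), while Ccnd1 (0.19, SE 0.12), Ccnd2 (0.12, SE 0.17) and Cdkn1b (0.17, SE 0.19) were not called. The members outside the calls were Pcna and Ccne2 in S phase and Cdk1, Plk1, Cenpa and Aurka in mitosis, with differences of 0.26 to 0.63. The count fell without replicate 1 of day 7, the array with 50.6% neuron level, and without replicate 2 of day 14. That of all genes fell with it. With only the 14 tumour arrays 25 members were called, and 4009 of all genes (5263 in the main fit). With only the 4 arrays compared 0 members were called, and 1 of all genes. Whether the hosts differed in this change was tested directly, and 0 of 41 members were called (2.44% of all genes). At an unadjusted p under 0.05 there were 2 members, against 19.4% of all genes. Counts of members and of all genes rose without replicate 2 of the Pfp/Rag2 -/- hosts at day 7, or of the WT hosts at day 14. The S phase genes with the smallest p were Mcm7 (-0.90, SE 0.27), Mcm6 (-0.44, SE 0.23), Mcm5 (-0.48, SE 0.27) and Cdt1 (-0.61, SE 0.35), where the value is the WT change minus the Pfp/Rag2 -/- change.

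Among the other genes of the cycle, 20 of 37 replication genes, 35 of 46 mitosis genes and 11 of 23 G1 genes were called higher from day 7 to day 14 in Pfp/Rag2 -/- hosts, with 1 lower in each list, and 1, 4 and 2 were called higher in WT hosts with none lower. The G1 gene called lower was Cdkn1c, which encodes p57, with a difference of -2.21 (SE 0.30, adjusted p = 0.0020). At day 7 Cdkn1c was lower in WT than in Pfp/Rag2 -/- hosts by -2.02 (SE 0.30, adjusted p = 0.0022), and the host difference at day 14 minus that at day 7 was 2.31 (SE 0.42, adjusted p = 0.020).

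From day 14 to the symptomatic stage in WT hosts, 4 S phase and 3 mitosis genes were called higher, against 9.86% of all genes (9.97% lower). Mcm7 rose by 0.73 (SE 0.18, adjusted p = 0.016), from 9.07 and 9.52 to 10.00, 9.96 and 10.10. Cdc45 rose by 0.53 (SE 0.14, adjusted p = 0.022), Mcm2 by 0.56 (SE 0.17, adjusted p = 0.039) and Mcm6 by 0.46 (SE 0.15, adjusted p = 0.044). Other genes of the replication helicase were not called: Mcm5 differed by 0.48 (adjusted p = 0.068), Mcm3 by 0.53 (adjusted p = 0.14), Mcm4 by 0.28 (adjusted p = 0.18) and Gins2 by 0.34 (adjusted p = 0.36). In mitosis Mki67, the Ki-67 protein used to mark dividing cells, rose by 0.66 (SE 0.20, adjusted p = 0.034) and Tpx2 by 0.53 (SE 0.17, adjusted p = 0.044), and Ube2c was at least 1.37-fold higher (adjusted p = 0.032). Ccnd2 went the other way and fell by 0.50 (SE 0.16, adjusted p = 0.039), from 11.95 and 12.22 to 11.86, 11.25 and 11.63. The other G1 genes were not called, with differences of -0.04 for Ccnd1, 0.03 for Cdkn1a, 0.54 for Cdkn2a and 0.33 for Cdkn1b. The count of 8 fell without replicate 1 of day 14, the WT array of that day with the higher neuron level (19.3% against 4.67%). That of all genes fell with it. The count of members was 4, 1 and 2 without 1 symptomatic array each. With only the 5 arrays compared 0 members were called, and 1 of all genes.

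Of 41 members 0 were called in Pfp/Rag2 -/- hosts between day 14 and the symptomatic stage by limma, where 0.0276% of all genes were called in either direction. At an unadjusted p under 0.05 there were 2 members and 7.79% of all genes. The differences of all members lay between -0.38 and 0.21, with a median of -0.12 for S phase and 0.01 for mitosis genes. The S phase genes with the smallest p were Mcm6 (-0.23, SE 0.15), Ccne1 (-0.20, SE 0.18), Mcm7 (-0.17, SE 0.18) and Mcm3 (-0.24, SE 0.25), and the mitosis genes Mki67 (0.21, SE 0.20), Ube2c (-0.22, SE 0.24), Cdk1 (0.13, SE 0.19) and Cenpa (0.08, SE 0.15). In G1, Ccnd1 and Ccnd2 differed by -0.28 (SE 0.11) and -0.38 (SE 0.16), both with an adjusted p of 0.56, and Cdkn1a, Cdkn2a and Cdkn1b by 0.13, -0.18 and -0.05. The difference between the hosts in this interval was called for 0 members (0.0207% of all genes). At an unadjusted p under 0.05 there were 9 of 41 members and 16.2% of all genes. The smallest p belonged to Mcm7 (0.90, SE 0.25, adjusted p = 0.15) in S phase and Ube2c (1.03, SE 0.33, adjusted p = 0.20) in mitosis. Counts of members and of all genes rose without replicate 2 of the WT hosts at day 14.

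Symptomatic tumours were then set against the cultured cells. In WT hosts 3 S phase and 3 mitosis genes were called lower than in cells and none higher. Of all genes tested 16.5% were called lower and 17.3% higher. The share of the 2 classes together called lower was close to that of all genes. In Pfp/Rag2 -/- hosts 6 S phase and 7 mitosis genes were called lower and none higher, where 17.2% of all genes were called lower and 18.6% higher. The 2 comparisons share the cell arrays, and their values for each member are set side by side in the plot of symptomatic tumours against cells. Tumours also held RNA of host cells, and its part in these differences was not tested.

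**Figure D3:**
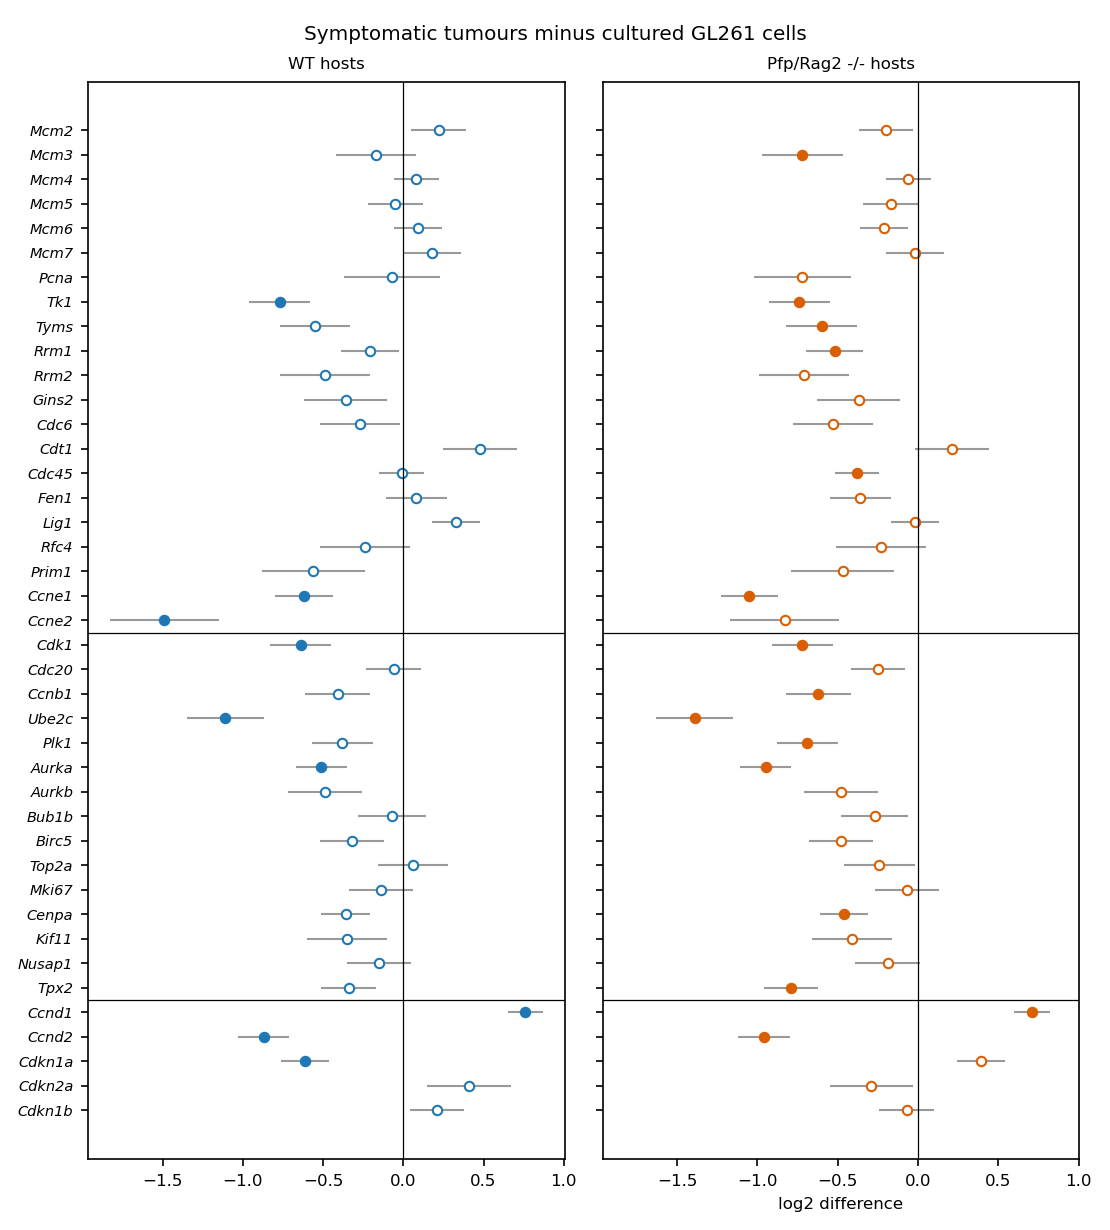
Log2 difference between symptomatic tumours and cultured GL261 cells for each of the 41 measured members, in WT hosts (left) and Pfp/Rag2 -/- hosts (right); bars are standard errors and filled points have an adjusted p under 0.05. Ube2c, Ccnd2 and Tk1 lie to the left of 0 and Ccnd1 to the right in both hosts, while Cdkn1a lies on opposite sides.

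Cyclins E1 and E2 activate Cdk2 at the entry into S phase. Ccne2, cyclin E2, read 8.25, 8.10 and 7.79 in symptomatic WT hosts and 8.73, 8.68 and 8.70 in Pfp/Rag2 -/- hosts, against 9.64 and 9.43 in cells. Its difference was -1.49 (SE 0.34, adjusted p = 0.0039) in WT and -0.83 (SE 0.34, adjusted p = 0.071) in Pfp/Rag2 -/- hosts. Ccne1 was lower by -0.62 (SE 0.18, adjusted p = 0.017) and -1.05 (SE 0.18, adjusted p = 5.3e-04), and Tk1 by -0.77 (SE 0.19, adjusted p = 0.0065) and -0.74 (SE 0.19, adjusted p = 0.0085). In Pfp/Rag2 -/- hosts Mcm3 (-0.72, SE 0.25), Rrm1, the large subunit of ribonucleotide reductase (-0.52, SE 0.18), Cdc45 (-0.38, SE 0.14) and Tyms, thymidylate synthase (-0.60, SE 0.22), were also called lower. Tyms differed by -0.55 (SE 0.22, adjusted p = 0.075) in WT hosts. The other S phase genes did not pass the test in either host.

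In mitosis Ube2c had the lowest value relative to cells in both hosts. It read 6.37, 6.06 and 6.15 in WT and 6.19, 5.43 and 6.14 in Pfp/Rag2 -/- hosts against 7.29 and 7.32 in cells, lower by -1.11 (SE 0.24, adjusted p = 0.0025) and -1.39 (SE 0.24, adjusted p = 5.1e-04). Cdk1 was lower by -0.64 (SE 0.19, adjusted p = 0.017) and -0.72 (SE 0.19, adjusted p = 0.0089), and Aurka by -0.51 (SE 0.16, adjusted p = 0.024) and -0.95 (SE 0.16, adjusted p = 4.5e-04). Tpx2 was called lower in Pfp/Rag2 -/- hosts (-0.79, SE 0.17), as were Plk1, Ccnb1 and Cenpa, while Cenpa was not in WT hosts (-0.36, SE 0.15, adjusted p = 0.092). With G1 genes included, the count of members called in WT hosts was 9, and 5 without replicate 1 of the cells. In Pfp/Rag2 -/- hosts it was 15, and 7 without replicate 1 of the cells, 7 without replicate 2 of the cells and 9 without symptomatic replicate 2.

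The D-type cyclin genes Ccnd1 and Ccnd2 parted in the tumours. Ccnd1 was higher than in cells by 0.76 (SE 0.11, adjusted p = 1.7e-04) in symptomatic WT and 0.71 (SE 0.11, adjusted p = 3.0e-04) in Pfp/Rag2 -/- hosts. All 14 tumour arrays lay between 14.06 and 14.45 for Ccnd1, with both cell arrays at 13.41 and 13.42 and brain at 10.17 and 10.13. The 3 kept probes of Ccnd1 were called higher in both hosts. Ccnd2 was lower than in cells by -0.87 (SE 0.16, adjusted p = 7.4e-04) and -0.96 (SE 0.16, adjusted p = 3.4e-04). All 14 tumour arrays, from 11.25 to 12.22, lay below the cells (12.46 and 12.43) and above brain (10.76 on both arrays). A dimmer Ccnd2 probe was not called in WT hosts (-0.14, adjusted p = 0.70) but was in Pfp/Rag2 -/- hosts (-0.92, adjusted p = 0.0090). Endothelial markers were measured for 7 of 8 genes, with a summed signal of 2400 to 4010 in tumours, 3960 to 4020 in brain and 311 to 324 in cells, where 6 of the 7 were at background. The 10 macrophage and microglia markers summed to 8200 to 12200 in symptomatic WT and 3490 to 3920 in symptomatic Pfp/Rag2 -/- hosts. Their sum was 1830 to 2000 in brain and 165 to 188 in cells. The part of either cell type in the cyclin differences was not tested.

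Cdkn1a stood on different sides of the cells in the 2 hosts. It was lower than in cells by -0.61 (SE 0.15, adjusted p = 0.0069) in symptomatic WT hosts and differed by 0.39 (SE 0.15, adjusted p = 0.061) in Pfp/Rag2 -/- hosts. Cdkn2a differed from cells by 0.41 (SE 0.26) and -0.29 (SE 0.26) and Cdkn1b by 0.21 (SE 0.17) and -0.07 (SE 0.17), none of them called.

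**Figure D4:**
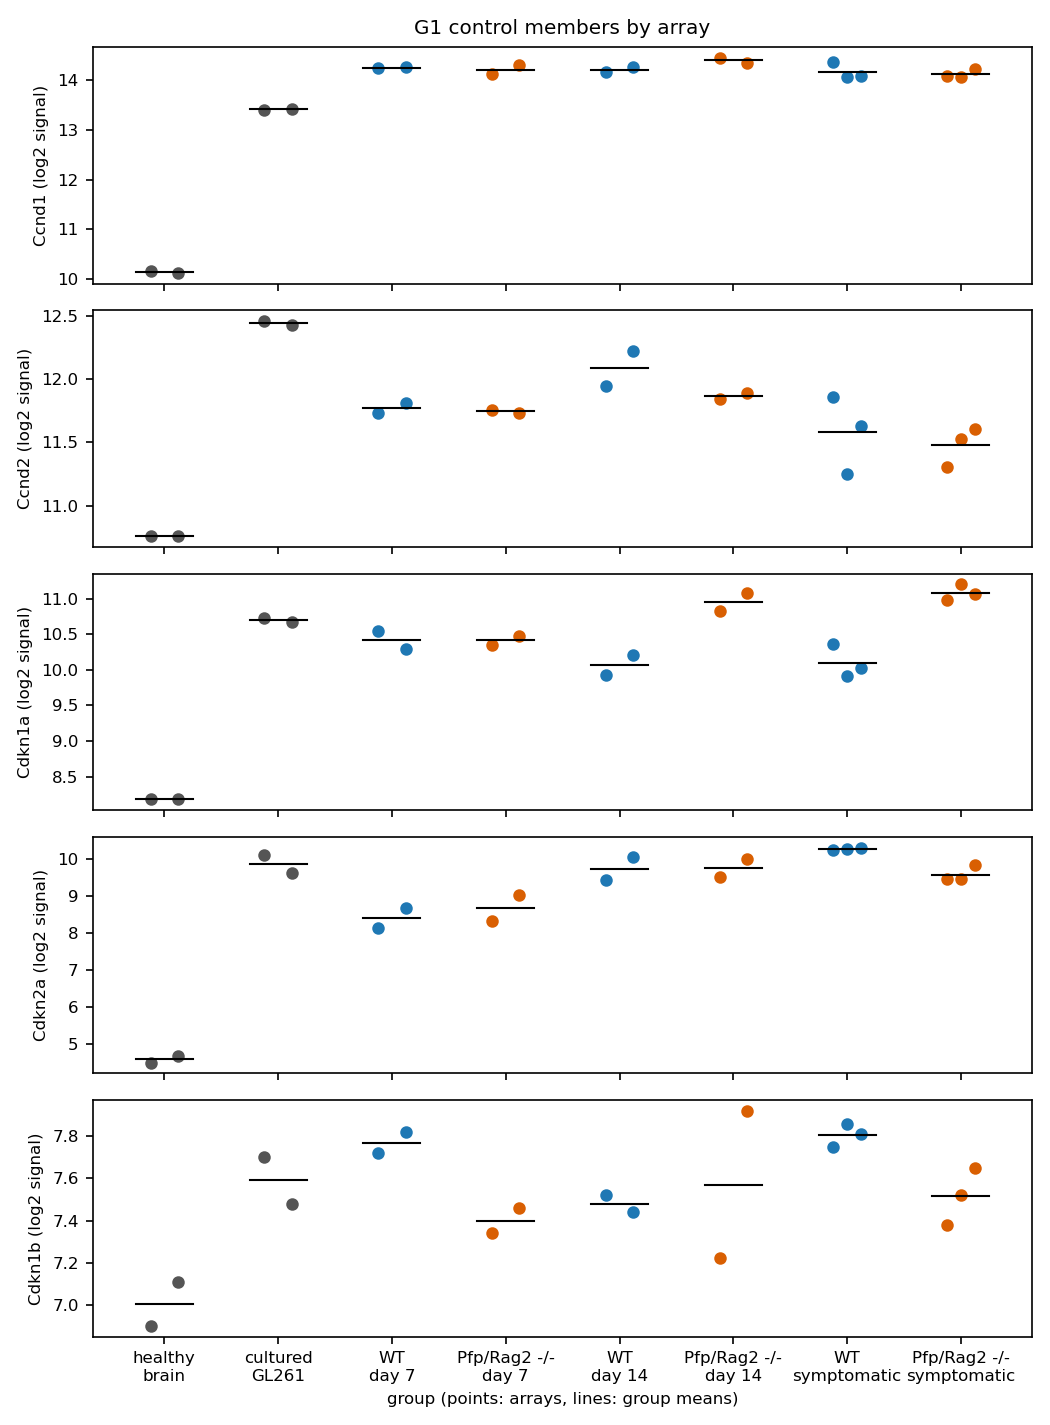
Log2 signal of the 5 G1 control genes on each of the 18 arrays; points are arrays, blue for WT and orange for Pfp/Rag2 -/- hosts, and lines are group means. Axes do not start at 0 and differ between genes. For Cdkn1a the WT arrays of day 14 and the symptomatic stage (9.91 to 10.36) lie below all Pfp/Rag2 -/- arrays of those stages (10.82 to 11.20), while at day 7 the hosts overlap.

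The hosts were compared at each stage, the comparison that the series was designed for. At day 7 limma called 0 of 41 members, where 3.35% of all genes were called. At an unadjusted p under 0.05 there were 0 members and 15.2% of all genes. Member differences, WT minus Pfp/Rag2 -/-, lay between -0.29 and 0.37, with medians of 0.02 for S phase and -0.08 for mitosis genes. The S phase genes with the smallest p were Tk1 (-0.25, SE 0.21), Mcm7 (0.20, SE 0.19), Fen1, a flap endonuclease (0.21, SE 0.21), and Rrm1 (-0.19, SE 0.20). The mitosis genes were Cenpa (-0.29, SE 0.17), Aurka (-0.14, SE 0.17) and Mki67 (-0.16, SE 0.21), beside Ube2c, at background in both hosts. Cdkn1b differed by 0.37 (SE 0.19, adjusted p = 0.38). Counts of members and of all genes rose without replicate 2 of the Pfp/Rag2 -/- hosts. Cdkn1a read 10.54 and 10.29 in WT and 10.35 and 10.48 in Pfp/Rag2 -/- hosts, a difference of 0.00 (SE 0.16). Cdkn2a (-0.25, SE 0.28), Ccnd1 (0.04, SE 0.12) and Ccnd2 (0.02, SE 0.17) were not called either.

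At day 14 Mcm7 and Cdkn1a were called lower in WT than in Pfp/Rag2 -/- hosts and no member higher, where 6.61% of all genes were called lower and 7.03% higher. Mcm7 read 9.07 and 9.52 in WT and 9.90 and 10.08 in Pfp/Rag2 -/- hosts, a difference of -0.70 (SE 0.19, adjusted p = 0.029). The call was lost without replicate 1 of the WT hosts (-0.48, adjusted p = 0.25), without replicate 2 of the Pfp/Rag2 -/- hosts (-0.61, adjusted p = 0.18) with only the 14 tumour arrays (adjusted p = 0.060) and with only the 4 arrays compared (adjusted p = 0.29). Without replicate 1 of the Pfp/Rag2 -/- hosts 3 members were called. Ccnd1 (-0.19, SE 0.12), Ccnd2 (0.22, SE 0.17), Cdkn1b (-0.09, SE 0.19) and Cdkn2a (-0.02, SE 0.28) were not called, though 1 of 3 kept Ccnd1 probes was (-0.66, adjusted p = 0.045). Other S phase genes with small p were Mcm6 (-0.39, SE 0.16), Mcm5 (-0.42, SE 0.19) and Cdt1 (-0.51, SE 0.25). In mitosis they were Ube2c, undetected in WT hosts and detected on 1 Pfp/Rag2 -/- array (adjusted p = 0.073), Mki67 (-0.51, SE 0.21), Cdc20 (-0.30, SE 0.19) and Kif11, a spindle motor (-0.35, SE 0.28). None of these passed the test. The median difference was -0.29 for S phase and -0.16 for mitosis genes, against -0.06 for all genes, and 20 of 21 and 12 of 15 had a negative value.

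Cdkn1a had the smallest adjusted p of all members between hosts at both later stages. At day 14 it read 9.93 and 10.21 in WT and 10.82 and 11.08 in Pfp/Rag2 -/- hosts, lower by -0.88 (SE 0.16, adjusted p = 0.0030). At the symptomatic stage it read 10.36, 9.91 and 10.02 in WT and 10.98, 11.20 and 11.07 in Pfp/Rag2 -/- hosts, lower by -0.99 (SE 0.13, adjusted p = 2.6e-04). Every WT array of both stages lay below every Pfp/Rag2 -/- array. All 3 kept probes of Cdkn1a were called at both stages, with differences of -0.88 to -1.02 at day 14 and -0.92 to -1.05 at the symptomatic stage. The call at both stages held without any 1 array, with adjusted p up to 0.043, while with only the 4 arrays of day 14 it had an adjusted p of 0.19. The change of the host difference from day 7 to day 14 was -0.88 (SE 0.23, adjusted p = 0.064), so a difference between stages was not called. It was with the mean of the 3 probes (-1.19, adjusted p = 0.025), without background correction (-0.85, adjusted p = 0.045) with the series matrix values (-0.88, adjusted p = 0.041), without replicate 2 of the Pfp/Rag2 -/- hosts at day 7 (-0.94, adjusted p = 0.044) and without replicate 2 of the WT hosts at day 14 (-1.02, adjusted p = 0.041).

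At the symptomatic stage Cdkn1a was the only member called, where 7.9% of all genes were called lower in WT hosts and 9.17% higher. Cdkn2a read 10.25, 10.28 and 10.31 in WT and 9.45, 9.45 and 9.83 in Pfp/Rag2 -/- hosts, a difference of 0.70 (SE 0.23) with an adjusted p of 0.053. Ccnd1 (0.05, SE 0.10), Ccnd2 (0.10, SE 0.14) and Cdkn1b (0.28, SE 0.15) were not called, though 1 of 3 kept Ccnd2 probes was (0.78, adjusted p = 0.024). S phase genes had a median difference of 0.26 and mitosis genes of 0.20, against -0.03 for all genes, and 17 of 21 and 13 of 15 had a positive value. With the smallest p were Cdc45 (0.37, SE 0.12, adjusted p = 0.060), Mcm2 (0.42, SE 0.16), Ccne1 (0.43, SE 0.16), Lig1 (0.35, SE 0.13), Aurka (0.44, SE 0.14, adjusted p = 0.051), Tpx2 (0.45, SE 0.15, adjusted p = 0.057), Plk1 (0.30, SE 0.17) and Top2a, DNA topoisomerase II alpha (0.30, SE 0.19). Without replicate 1 of the WT hosts 2 members were called. With cyclic loess scaling 6 members were called higher in WT hosts beside Cdkn1a, and without background correction 5. Of all genes 2573 and 2637 were called in these 2 fits in either direction, against 2473 in the main fit.

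**Figure D5:**
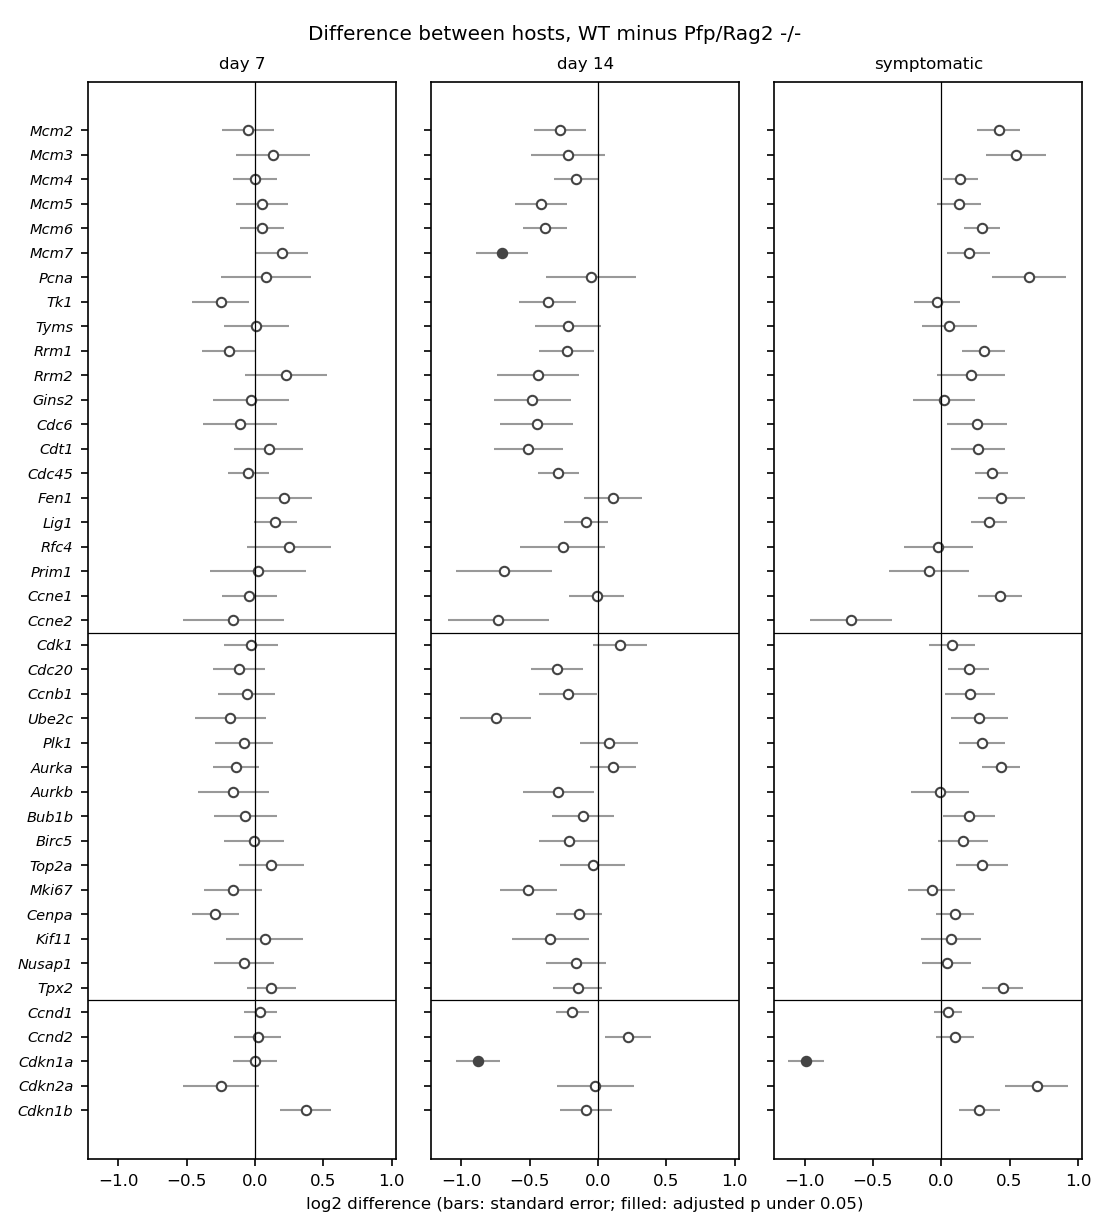
Log2 difference between hosts, WT minus Pfp/Rag2 -/-, for each of the 41 measured members at day 7, day 14 and the symptomatic stage; bars are standard errors and filled points have an adjusted p under 0.05. Filled points are Mcm7 and Cdkn1a at day 14 and Cdkn1a at the symptomatic stage, all on the left of 0.

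Other genes that p53 is known to induce, as it does Cdkn1a, were taken from a list of 15, of which 11 were measured. At day 14 Bbc3, the pro-apoptotic PUMA gene, was lower in WT hosts by -0.80 (SE 0.18, adjusted p = 0.011), and 2 of the 11 were called lower and 2 higher, among the latter Pmaip1 (0.66, SE 0.15), which was at background in Pfp/Rag2 -/- hosts. Among all genes the day 14 comparison called 6.61% lower and 7.03% higher, the symptomatic one 7.9% lower, and the list was not tested against these shares. At the symptomatic stage the 2 called were Zmat3, an RNA-binding protein gene (-0.65, SE 0.15, adjusted p = 0.011), and Bbc3 (-0.60, SE 0.15, adjusted p = 0.014), both lower in WT hosts. The median of the list was -0.11 at day 14 and 0.00 at the symptomatic stage. Of the further genes of the cycle, 1 of 37 replication genes (Dscc1, -1.09, SE 0.27), 1 of 46 mitosis genes (Kif18a, -0.84, SE 0.26) and 2 of 23 G1 genes (Tfdp2, -0.89, SE 0.20, and Myc, -0.79, SE 0.24) were called lower in WT hosts at day 14, and none higher. At the symptomatic stage 2 replication genes (Pold3, 0.46, SE 0.10, and Gins1, 0.77, SE 0.18) and 2 mitosis genes (Pttg1, 0.95, SE 0.21, and Bub3, 0.28, SE 0.09) were called higher in WT hosts, and 1 G1 gene, Tfdp2, lower (-0.52, SE 0.16, adjusted p = 0.042). The shares of replication and mitosis genes called at either stage were below those of all genes (6.61% lower at day 14 and 9.17% higher at the symptomatic stage).

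Markers of host cell types also differed between the tumours compared. The summed signal of the 7 measured T cell markers of 11 was 2260 to 2650 in WT and 492 to 525 in Pfp/Rag2 -/- hosts at day 14, and 1030 to 1560 and 366 to 473 at the symptomatic stage. In cultured cells this sum was 434 to 443, with 1 of the 7 detected. That of the 10 macrophage and microglia markers was 18000 to 18900 against 5080 on both arrays at day 14, with Itgam and Ptprc at background in Pfp/Rag2 -/- hosts, and 8200 to 12200 against 3490 to 3920 at the symptomatic stage. The 9 measured oligodendrocyte markers of 10 summed to 23900 to 55800 in WT and 13500 to 22100 in Pfp/Rag2 -/- hosts at day 14, and to 11600 to 15100 and 20300 to 24200 at the symptomatic stage. In cultured cells they summed to 22400 to 23000, with 5 of the 9 detected, so this sum does not stand for host cells alone. The part of host cells in the host differences of the members was not tested.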

How the data were processed

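The 18 arrays were grouped by their titles, since titles and descriptions number symptomatic Pfp/Rag2 -/- replicates 2 and 3 oppositely. The deposited probe signals are intensity values without scaling, as their values show. The authors' gene table holds group signals and detection scores made without normalization, per the file headers, and 32 of its per-group columns were not used. In the authors' series matrix, 99.6% to 100% of an array's intensity values lay within 1% of its probe signals, with a ceiling of 20000 and medians of 172 to 576. No source used here tells how its probes were chosen, or names chip or scan batches.

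Probes carry no gene names, so each gene was linked to the 1 to 5 probes that gave its group values (30387 of 30854 genes, largest difference 0.0557 signal units, 0 of 30854 decoys linked to 1 probe). Symbols were updated with the GRCm38.p6 annotation (16223 symbols and 3738 synonyms matched, 10893 names were kept). Signals were corrected on 946 negative controls and quantile normalized with neqc (limma 3.58.1, R 4.3.3, offset 16). Kept were probes whose detection p-value, computed from the deposited intensity, was below 0.01 on 2 or more arrays, and the brightest stood for its gene (14489 genes). limma fitted 1 mean per group (10 residual and 2.97 prior degrees of freedom), with Benjamini-Hochberg adjustment in each of 14 contrasts. None of 20 members with several kept probes had probes called in both directions. Where a probe was undetected on every array of the dimmer group, that group was set to the lowest detected signal of each array, or to the probe's own signal where higher, and the fold is given as "at least". Members and lists were chosen with earlier results of these data known. Named per comparison were the 5 G1 genes, the 4 genes of each class with the smallest p, all calls of a class with up to 6, and up to 2 genes of each other list. The fit was tested on simulated data. The alternatives were scaling, background, filter, probe choice, series matrix values, the arrays fitted, a replicate block and leaving out each array.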

Additional observations from a re-analysis of the deposited data

How the results depend on the processing

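Members called higher in cells or day 7 tumours than in brain numbered 37 to 42 under every alternative, and without single arrays 40 to 41 for cells, 38 for WT and 37 to 38 for Pfp/Rag2 -/- hosts at day 7. Tested were 41 members, but 45 without the filter and 37 with series matrix values. The later comparisons depended more on the processing, and the cause was not tested. Counts of all genes changed with the settings too, not always in the same direction as those of members. Between stages within hosts, fits of only the arrays compared called 0 or 1 of all genes. Their 0 members therefore say nothing about the members. From day 7 to day 14 in WT hosts the 5 calls became 8 without background correction, 3 with series matrix values, 0 with only the arrays compared, 3 with only the 14 tumour arrays, 12 with the replicate block and 0 to 15 without single arrays. In Pfp/Rag2 -/- hosts the 32 became 16 with series matrix values, 0 with only the arrays compared and 2 to 35 without single arrays. From day 14 to symptomatic WT hosts the 8 became 5 with cyclic loess, 2 without the filter, 1 with series matrix values, 0 with only the arrays compared, 2 with only the tumour arrays and 0 to 10 without single arrays. In Pfp/Rag2 -/- hosts the 0 became 20 (all lower) with series matrix values and 0 without single arrays. Against cells, WT hosts had 9 calls, 14 with series matrix values (12 higher), 15 with only the arrays compared and 5 to 9 without single arrays, and Pfp/Rag2 -/- hosts 15, 8 (5 higher), 23 and 7 to 11. Series matrix values were not scaled between arrays, and with them all genes shifted too. From day 14 to symptomatic Pfp/Rag2 -/- hosts their median difference was -0.42, with 2546 genes called against 4 in the main fit. Against cells the median was 0.66 in WT hosts (5646 genes called) and 0.52 in Pfp/Rag2 -/- hosts (4737 called). With series matrix values Cdc45 turned to 0.08 (adjusted p = 0.53) in Pfp/Rag2 -/- hosts against cells.

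Between hosts at day 7, the 0 calls rose without 1 of the arrays, as did those of all genes. At day 14 the 2 became 0 with only the arrays compared, 1 with only the tumour arrays and 1 to 3 without single arrays. At the symptomatic stage the 1 became 7 with cyclic loess, 6 without background correction and 3 with the mean of the probes. It became 10 with series matrix values, 6 with only the arrays compared, 6 with the replicate block and 1 to 2 without single arrays. Of all genes 2473 were called in the main fit, 2573 with cyclic loess, 2637 without background correction and 2461 with the mean of the probes. With series matrix values 1663 were called, with only the arrays compared 2350 and with the replicate block 2655. The change of the host difference to day 14 went from 0 to 1 without background correction, with the mean of the probes and with series matrix values, and to 0 to 4 without single arrays, and that to the symptomatic stage to 0 to 2. Same-numbered arrays of the hosts correlated in their deviations from group means at 0.06 (day 7), 0.72 (day 14) and -0.15, 0.09 and -0.26 (symptomatic), so the numbers were not taken to pair the samples. At day 14 replicate 1 had the higher neuron level in both hosts (19.3% against 4.67% in WT, 14.3% against 3.04% in Pfp/Rag2 -/-). The count of 2 was 2 with the replicate block. That block fits a common effect per replicate number over all groups, so it does not check a pairing at day 14 alone. Ccnb2, Ccna2, Bub1 and Kif20a were at background on every array, so the main fit left them out, while the fit without the filter tested them.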
